A study of Mus musculus with 6 samples.

Results

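The genes described here are 10 markers of neural stem cells and radial glia: Nes, Vim, Sox2, Sox9, Pax6, Fabp7, Hopx, Prom1, Ptprz1 and Msi1. They were chosen by name, with earlier results of these data known. All 10 were found among the 24503 gene symbols of the count table. RNA was sequenced from primary neural stem cells taken from mouse cortex at E13.5, enriched as neurospheres and then expanded on laminin with FGF and EGF. The knockout cells (KO, n = 3 libraries) carried Phf2flox/flox and the Nestin-Cre transgene B6.Cg-Tg(Nes-cre)1Kln/J, in which regulatory sequence of the rat nestin gene drives Cre in neural progenitors. The control cells (WT, n = 3 libraries) were Phf2flox/flox without Cre, so loss of Phf2 and presence of Cre cannot be told apart. Phf2 encodes a chromatin enzyme of the Jumonji family that removes methyl groups from histone H3 lysine 9.

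Radial glia are the elongated stem cells of the embryonic brain, whose cell bodies line the ventricle and whose divisions give rise to neurons and later to glia. They are recognised by intermediate filament proteins, by SOX and PAX transcription factors that hold the progenitor state, and by a lipid-binding protein, surface proteins and an RNA-binding protein that many neural progenitors share. The same genes are expressed in neural stem cells in culture, and several of them also in astrocytes, which descend from radial glia.

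Total counts ranged from 33413444 to 46890314 per library. Phf2 itself had 56.3, 48.1 and 48.8 CPM (read counts per library total, TMM-scaled) in KO 1, 2 and 3, against 108.6, 90.4 and 77.8 CPM in WT 1, 2 and 3, and the groups did not overlap. Phf2 differed by −0.85 ± 0.15 (log2 fold change, SE), with Benjamini-Hochberg adjusted p = 0.182 when tested by edgeR's quasi-likelihood method with no block, and 0.000123 with the replicate number as a block. The libraries numbered 1 stood apart from those numbered 2 and 3 in both genotypes: 57.6% of the 13683 genes tested differed between them at adjusted p under 0.05, with the genotype as a covariate. KO 2 and KO 3 were the most alike pair of libraries, with a root mean square difference of 0.296 log2 CPM over tested genes. WT 2 and WT 3 came next at 0.324, and all further pairs ran from 0.425 to 0.844 log2 CPM. Marker values are therefore given for each library, and the markers were tested without the block and with it. The labels do not say that libraries came from separate embryos or cultures, so all p-values here rest on a spread between libraries that may be only technical.

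In KO cells Hopx and Prom1 RNA was lower by 53.2% and 60.7%, and the other 8 markers had log2 fold changes between −0.01 and 0.26. Without the block 0 of the 10 markers passed at adjusted p under 0.05 in edgeR's test, against 0.0585% of all genes. An unadjusted p under 0.05 in that test was seen for 2 of the markers, against 795 of all 13683 genes. Adjusted p in that fit was 0.411 for Hopx, 0.0959 for Prom1, 0.877 for Pax6 and 0.999 for each of the other 7. With the block 2 passed, both lower, against 9.79% of all genes called, 3.33% higher and 6.46% lower. The median log2 fold change of the 10 markers was 0.05 in both fits, against 0.01 over all 13683 genes. All 10 markers passed the filter on low counts.

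**Figure D1:**
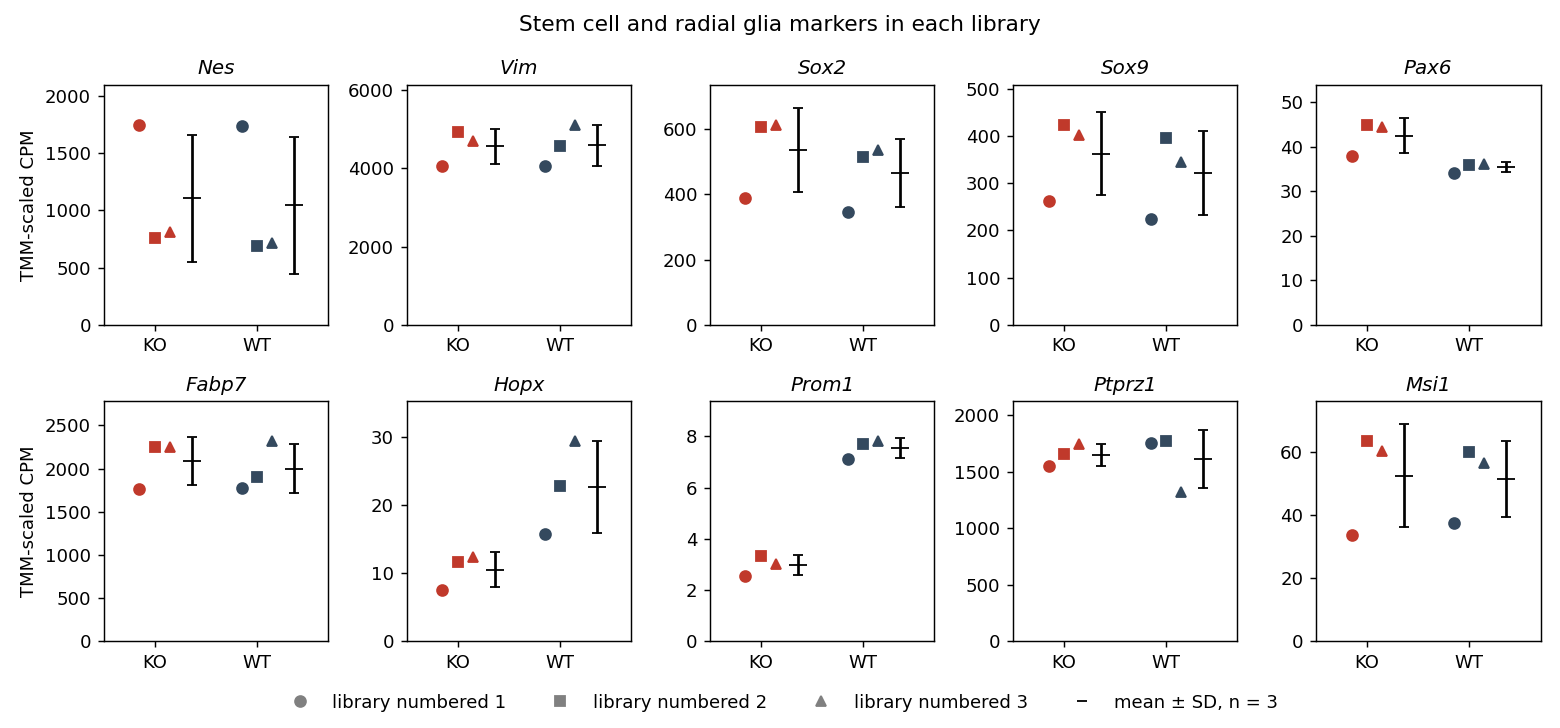
CPM (TMM-scaled) of each marker in every library, KO left and WT right, with the symbol giving the library number and the bar the mean ± SD of 3 libraries. For Hopx and Prom1 all KO points lie below all WT points, for Pax6 all lie above, and Nes is high in both libraries numbered 1.

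Sequences before a RefSeq start are shown here for the 3 markers whose KO and WT libraries did not overlap. Of all tested genes, 6.71% had every KO library below every WT library, and 4.49% had every KO library above. Counts were per gene, so the start from which the RNA came is not known. Each sequence is the 250 bases before a RefSeq start (GRCm38.p6), 5′ to 3′ on the gene's strand. For each gene the start was taken where these bases lie in no annotated exon. The Prom1 window lies inside the gene, whose annotated 5′ end is at 44102032, while those of Hopx and Pax6 lie just outside theirs. Capitals mark matches, on either strand, to the motifs searched. The basic helix-loop-helix motifs were the E-box, CACGTG, and the N-box to which Hes repressors bind, CACNAG. Those of SRY-box factors were written as ACAATG and, in a second form, as ACAAAG. The motif of the Notch effector RBPJ was written as TGGGAA. Those of E2F factors, which act in the cell cycle, were TTTCGCGC and TTTGGCGC. The general promoter motifs were the GC box, written as CCGCCC, and the TATA box, written as TATAAA.
Hopx, chr5:77115124-77115373, minus strand: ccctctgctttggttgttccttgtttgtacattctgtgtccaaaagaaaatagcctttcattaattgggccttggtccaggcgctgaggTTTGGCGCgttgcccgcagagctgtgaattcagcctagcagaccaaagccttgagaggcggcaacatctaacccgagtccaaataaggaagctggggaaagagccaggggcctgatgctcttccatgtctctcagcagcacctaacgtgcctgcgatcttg
Prom1, chr5:44094769-44095018, minus strand: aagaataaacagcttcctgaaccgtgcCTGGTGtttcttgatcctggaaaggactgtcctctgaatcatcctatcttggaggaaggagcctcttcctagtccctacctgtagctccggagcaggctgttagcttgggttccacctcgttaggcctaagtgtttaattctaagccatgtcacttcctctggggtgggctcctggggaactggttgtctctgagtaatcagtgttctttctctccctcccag
Pax6, chr2:105668646-105668895, plus strand: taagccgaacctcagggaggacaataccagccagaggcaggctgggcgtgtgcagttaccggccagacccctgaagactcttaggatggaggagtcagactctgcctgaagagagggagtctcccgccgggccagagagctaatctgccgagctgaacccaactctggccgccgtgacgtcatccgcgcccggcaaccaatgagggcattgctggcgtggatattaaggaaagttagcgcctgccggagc
The Hopx window held 1 match, TTTGGCGC. A match to either E2F form was found in 0.654% of 32851 mouse promoter windows of the same length. The Prom1 window held 1 N-box match, a motif found in 36.7% of all windows, and the Pax6 window held 0 matches, so matches overlapped in 0 of these windows. Each of the 3 genes also has a second RefSeq window, not printed, whose 250 bases all lie in annotated exons. The second window of Prom1 (44101737 to 44101986) is nearer the 5′ end of the gene than the printed 1. The second window of Hopx held 1 E-box and 1 N-box match, that of Prom1 2 N-box, 1 RBPJ and 1 GC box match. That of Pax6 held 1 N-box and 1 SOX match. For Hopx, Prom1 and Pax6 the printed windows held 8, 3 and 15 CG dinucleotides, and the second windows 18, 9 and 15. The median over all promoters was 6. Windows were found for 8 of the 10 markers, all but Sox9 and Msi1.

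Hopx encodes a small homeodomain-only protein that does not bind DNA and marks outer radial glia in the human cortex and quiescent stem cells in the adult mouse hippocampus. The gene lies on chromosome 5 (77086988 to 77115121, minus strand, GRCm38). Hopx had 7.57, 11.6 and 12.4 CPM in KO 1, 2 and 3, against 15.8, 22.9 and 29.4 CPM in WT 1, 2 and 3. The highest KO value was below the lowest WT value, a gap in that direction seen in 6.71% of all genes, and in each genotype number 1 was the lowest. The counts behind these values were 311, 494 and 417 in KO and 727, 923 and 1389 in WT. The log2 ratio of KO to WT within a number was −1.06, −0.97 and −1.25 for numbers 1, 2 and 3. With the block Hopx fell by 1.10 ± 0.0936 (log2, SE), which is 53.2% less RNA, with adjusted p = 0.000112 in edgeR's test. Without the block it was −1.11 ± 0.29 with an adjusted p of 0.411, while DESeq2 without a block, which called 1.91% of all genes, gave 0.0223.

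Prom1 encodes prominin-1 (CD133), a membrane glycoprotein of the protrusions on the ventricular surface of progenitors, used to sort neural stem cells, and also found on ependymal cells. The gene lies on chromosome 5 (43993620 to 44102032, minus strand, GRCm38). Prom1 had 2.55, 3.32 and 3.03 CPM in KO 1, 2 and 3, against 7.11, 7.71 and 7.80 CPM in WT 1, 2 and 3. The 3 libraries of a genotype were close to each other and the genotypes were far apart. Prom1 was the least abundant of the 10 markers, with 102 to 141 counts in KO libraries and 311 to 368 in WT libraries. With the block Prom1 fell by 1.35 ± 0.13 (log2, SE), or 60.7%, with adjusted p = 0.000204 in edgeR's test. Without it the value was −1.34 ± 0.175, edgeR's p was 0.000182 before adjustment and 0.0959 after it, and DESeq2 without a block gave an adjusted p of 5.1e-10.

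For both genes the call with the block was kept in each of the 7 other blocked fits, which included leaving out any 1 number and summing KO 2 and KO 3 as 1 library (4.94% of all genes called). WT 2 and WT 3 stayed separate libraries when KO 2 and KO 3 were summed. Over these 7 fits the log2 fold changes ran from −1.15 to −1.02 for Hopx and from −1.42 to −1.29 for Prom1. Without the block, neither gene passed in edgeR's test when any 1 library was left out. Hopx shares 412 exonic bases with the antisense gene Hopxos, and Prom1 shares 424 with Gm16401. The strand setting of the counting is not known from the labels, so reads of these antisense genes cannot be told apart from those of the markers. In RNA from bulk cultures, fewer cells that express a gene and less RNA per cell cannot be told apart either.

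**Figure D2:**
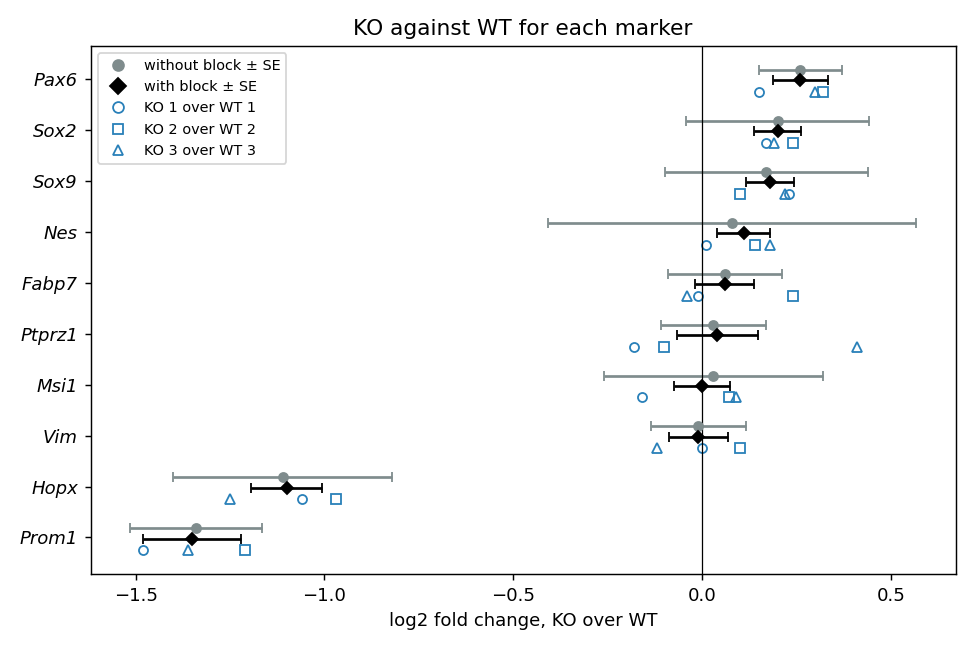
Log2 fold change of KO over WT for each marker, without the block (grey circles) and with it (black diamonds), both ± SE, and the ratio within each library number (open blue symbols). Hopx and Prom1 lie below −0.9 for every number, and the other 8 markers lie within 0.41 of 0 for every number.

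The filament genes did not pass in either fit. Nes encodes nestin, the intermediate filament protein of neural progenitors. It had 1748, 757.5 and 807 CPM in KO 1, 2 and 3, against 1738, 687 and 712 CPM in WT 1, 2 and 3. The high value in each genotype was the library numbered 1, and KO and WT of the same number were close. It differed by 0.08 ± 0.487 without the block and by 0.11 ± 0.0698 with it (log2, SE), at adjusted p = 0.999 and 0.387 in edgeR's test. Vim encodes vimentin, the filament protein with which nestin assembles. Vim had 4069.9, 4926 and 4705 CPM in KO and 4070.3, 4587 and 5116 CPM in WT, with a log2 fold change of −0.01 ± 0.0775 (SE) with the block. Its groups overlapped throughout.

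The 3 transcription factor genes were slightly higher in KO for each library number. Of these, 0 passed in edgeR's test of all 6 libraries with TMM scaling. Pax6 encodes a paired-box homeodomain factor of dorsal telencephalic radial glia. It had 37.9, 44.9 and 44.5 CPM in KO 1, 2 and 3, against 34.1, 35.9 and 36.2 CPM in WT 1, 2 and 3. The lowest KO value was above the highest WT value, as was so for 4.49% of all genes. With the block Pax6 differed by 0.26 ± 0.0733 (log2, SE) at adjusted p = 0.0553 in edgeR's test, 0.0497 with DESeq2 size factors and 0.0442 without number 3. Sox2, which encodes an SRY-box factor that maintains the progenitor state, had 389, 608 and 614 CPM in KO, against 345, 515 and 537 CPM in WT. Its groups overlapped, and both libraries numbered 1 were low. Its log2 ratios within a number were 0.17, 0.24 and 0.19. With the block Sox2 differed by 0.20 ± 0.0632 (log2, SE) at adjusted p = 0.0783 in edgeR's test, and 0.0328 in that test without number 3. DESeq2 with the block, which called 9.27% of all genes, gave an adjusted p of 0.0408. Sox9, which encodes an SRY-box factor needed for stem cell formation and for gliogenesis, had 262, 423.5 and 401 CPM in KO and 223, 396 and 346 CPM in WT. With the block it differed by 0.18 ± 0.0637 (log2, SE) at adjusted p = 0.111 in edgeR's test.

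Fabp7, Ptprz1 and Msi1 had KO and WT levels within the spread of their libraries. Fabp7 encodes the brain lipid-binding protein of radial glia. It had 1764.5, 2244 and 2254 CPM in KO and 1773, 1905 and 2313 CPM in WT. Ptprz1 encodes a receptor-type tyrosine phosphatase with a chondroitin sulfate ectodomain, carried by outer radial glia in human cortex and by oligodendrocyte progenitors. It had 1549.6, 1653 and 1747 CPM in KO and 1756, 1768 and 1317 CPM in WT, with WT 3 the lowest of the 6. Its log2 ratios within a number were −0.18, −0.10 and 0.41, the widest range among the 10 markers. Msi1 encodes Musashi-1, an RNA-binding protein that represses translation of the Notch inhibitor Numb. It had 33.6, 63.3 and 60.2 CPM in KO and 37.5, 60.1 and 56.6 CPM in WT. With the block the log2 fold changes were 0.06 ± 0.0788, 0.04 ± 0.107 and 0.00 ± 0.075 (SE) for Fabp7, Ptprz1 and Msi1.

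For 6 of the 10 markers the log2 difference between number 1 and the other numbers was larger in size than that between KO and WT with the block. The same order held for the table as a whole. Over all tested genes the median size was 0.34 for the number and 0.12 for KO against WT with the block. In the libraries numbered 1, 1 marker was higher and 6 were lower than in numbers 2 and 3 at adjusted p under 0.05 in edgeR's test with the genotype as a covariate, against 28.2% and 29.4% of all genes. Nes was 2.36 times as high in number 1 (log2 difference 1.24 ± 0.0642, SE). Msi1 was at 0.593, Hopx at 0.616, Sox9 at 0.618 and Sox2 at 0.646 times the level of numbers 2 and 3. Fabp7 and Vim were at 0.812 and 0.842 times that level, and no longer passed without KO 1, KO 2, KO 3 or WT 1 (adjusted p from 0.0569 to 0.194 for Fabp7 and from 0.0616 to 0.192 for Vim in edgeR's test). Pax6 (−0.16 ± 0.0675), Prom1 (−0.21 ± 0.12) and Ptprz1 (0.03 ± 0.121, log2, SE) did not pass. What sets number 1 apart is not given in the labels. All 8 proliferation genes listed (Mki67, Top2a, Pcna, Mcm2, Mcm5, Ccnb1, Cdk1 and Aurkb) were higher in number 1, with a median log2 difference of 0.64, and 5 of 7 tested astrocyte markers were lower, with a median of −1.61. Their part in the differences of the markers was not tested.

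**Figure D3:**
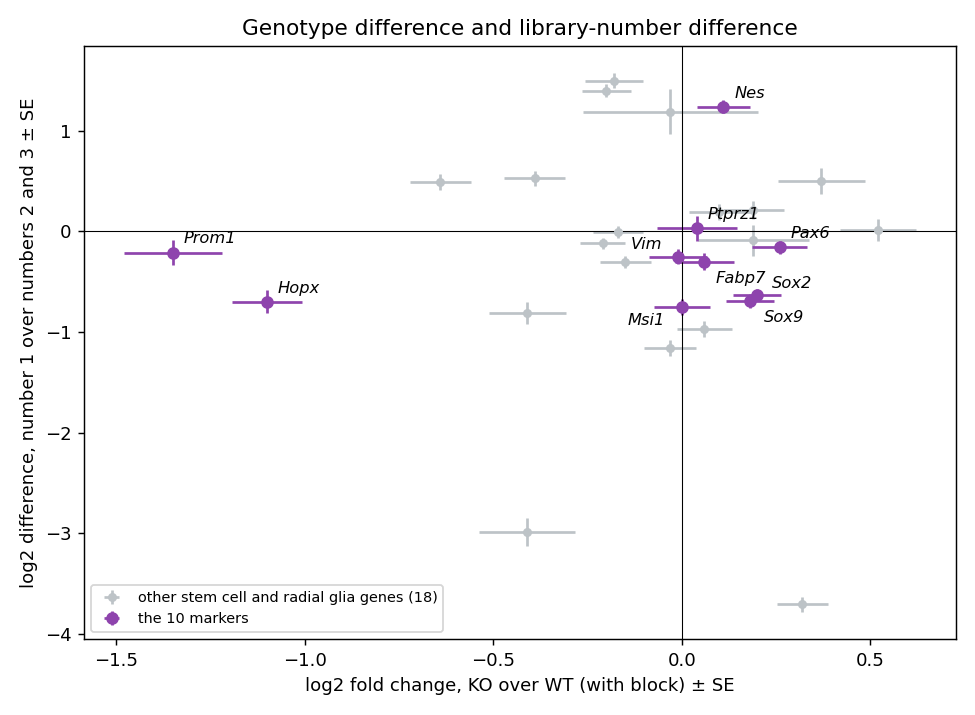
Log2 fold change of KO over WT with the block (horizontal axis) and log2 difference of number 1 over numbers 2 and 3 (vertical axis), both ± SE, for the 10 markers (purple, named) and 18 other stem cell and radial glia genes (grey). Hopx and Prom1 stand to the left at −1.10 and −1.35, and Nes stands at the top at 1.24.

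Levels of different genes were compared per length, as CPM per kb of merged exons. Fabp7 was the highest, at 1669.9 ± 224 in KO and 1598 ± 225 in WT (SD, n = 3 each), followed by Vim at 963 ± 93.7 in KO and 968 ± 110.3 in WT. Sox2 (261 ± 62.3 in KO and 227 ± 51.1 in WT), Nes (172 ± 87.0 in KO and 163 ± 93.5 in WT), Ptprz1 (116 ± 6.94 in KO and 113 ± 18 in WT) and Sox9 (87.6 ± 21.2 in KO and 77.7 ± 21.5 in WT) came next, and each of these overlapped its neighbour in that order over the 6 libraries. Hopx (6.95 ± 1.71 in KO and 15 ± 4.5 in WT) and Msi1 (9.03 ± 2.81 in KO and 8.86 ± 2.09 in WT) overlapped too, and their order differed between the genotypes. Pax6 was at 3.63 ± 0.334 in KO and 3.03 ± 0.0955 in WT, and Prom1 was the lowest at 0.414 ± 0.0541 in KO and 1.05 ± 0.0522 in WT. With the longest transcript as the length, 6 of the 10 markers kept their place in the order.

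**Figure D4:**
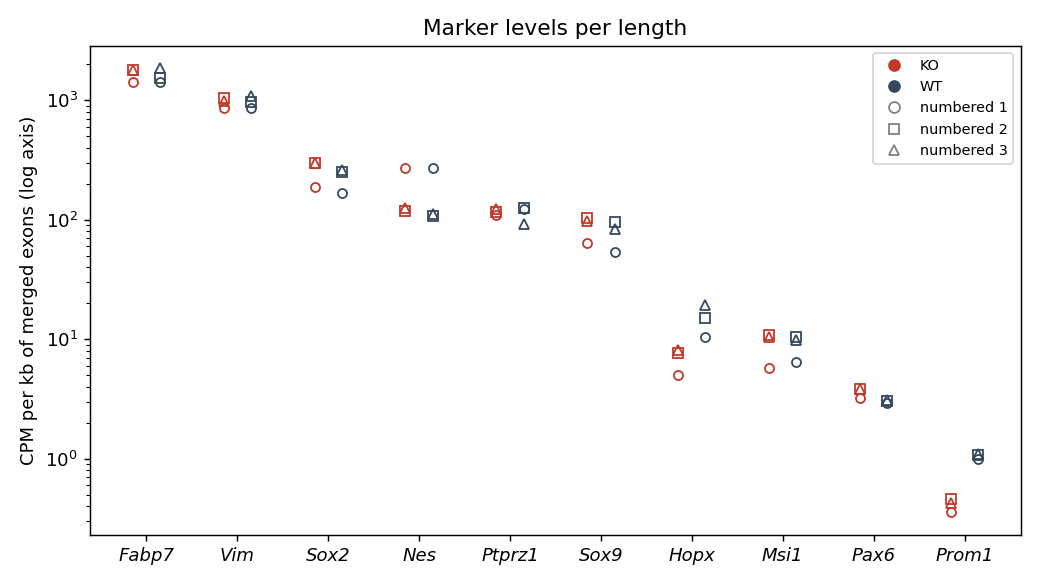
CPM per kb of merged exons on a log axis for each marker and library, KO left of WT within a marker, in falling order of the mean over 6 libraries. Fabp7 and Vim are highest, Hopx overlaps Msi1, and Prom1 is lowest, near 1 in WT libraries and under 0.5 in KO libraries.

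The pattern of each marker over the 6 libraries was compared with that of other genes by the root mean square difference of log2 CPM after subtracting each gene's mean, over 11687 genes whose mean reached 2 CPM. Since the libraries fall into separate clusters, no correlation is given. Hopx was closest to Gpnmb, a membrane glycoprotein gene (0.0997 log2 units), Scg5, a chaperone of a prohormone convertase (0.113), and Isyna1, the enzyme that makes inositol phosphate from glucose phosphate (0.117). Prom1 was closest to Tmem255a (0.111), Ephb6, an Eph receptor without kinase activity (0.135), and Lynx1, a modulator of nicotinic receptors (0.145). Hopx and Prom1 differed from each other by 0.286, and each was the other's nearest marker. Among all 11687 genes, however, Prom1 was only at place 81 for Hopx, and Hopx at place 41 for Prom1. Since only each gene's mean was subtracted, the KO and WT difference is part of this likeness. Sox2 and Sox9 (0.0887, places 81 and 56) and Vim and Fabp7 (0.0649, places 356 and 84) were also each other's nearest markers. The nearest marker to Nes was Ptprz1, at 0.586 and place 5630.

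Of 18 other genes of neural stem cells and radial glia, 2 rose and 3 fell with the block, against 9.79% of all genes called, and 0 passed without it, with an edgeR median log2 fold change of −0.09 in both fits. Lhx2, a LIM homeodomain factor of cortical progenitors, had 35.2, 27.2 and 28.1 CPM in KO and 62.4, 38.5 and 42.6 CPM in WT, and fell by 0.64 ± 0.0822 (log2, SE; adjusted p = 0.000992, edgeR with the block). Emx2, a homeodomain factor of the dorsal telencephalon, fell by 0.39 ± 0.0813, and Fgfr3, an FGF receptor outside the rule for named genes, fell by 0.41 ± 0.102. Lifr, a receptor chain for leukaemia inhibitory factor, rose by 0.52 ± 0.101 and Hes5, a Notch target, by 0.32 ± 0.0687 (log2, SE). Hes5 was low in both libraries numbered 1, at 23.4 CPM in KO 1 and 18.3 CPM in WT 1, against 312 and 290.1 CPM in KO 2 and 3 and 232 and 255 CPM in WT 2 and 3. With KO 2 and KO 3 summed as 1 library, 1 of the 18 fell and 0 rose.

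Among 12 tested paralogs of the markers, 3 fell with the block and 0 rose, against 6.46% of all genes lower and 3.33% higher, and 0 passed without it. Gfap, the filament gene of astrocytes, fell by 1.12 ± 0.126, Sox10, an SRY-box gene of the oligodendrocyte lineage, by 0.92 ± 0.121, and Fabp3, a fatty acid binding protein gene at 0.643 CPM in KO and 1.57 CPM in WT, by 1.29 ± 0.242 (log2, SE, with the block). Without the block edgeR's adjusted p was 0.999 for Gfap and Sox10, whose KO and WT libraries overlapped, and 0.548 for Fabp3. The closest relatives of Sox2, Sox1 and Sox3, had log2 fold changes of −0.17 ± 0.0664 and −0.20 ± 0.0652, and Msi2 had 0.13 ± 0.0776 (SE), none of which passed. RSEM shares out reads that match several genes, so levels of near relatives are less certain than their counts. Among 7 ligands and partners of Ptprz1, Mdk, the growth factor midkine, fell by 1.45 ± 0.223 (log2, SE) with the block, at 0.767 CPM in KO and 2.09 CPM in WT, and had an adjusted p of 0.172 without it in edgeR's test. The more abundant ligand Ptn, pleiotrophin, had 1295 CPM in KO and 1113 CPM in WT, and with Tnc, tenascin C (588 and 647 CPM), did not pass.

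Markers of other cell types were counted in the same libraries, and their calls are those of the fit with the block, which called 6.46% of all genes lower and 3.33% higher. Without the block 1 of these markers passed, Nkx2-2. Of 7 tested astrocyte markers, 3 fell and 1 rose with the block: Aldh1l1, a folate enzyme gene, had 39.1 CPM in KO and 158.5 CPM in WT, Gfap and Slc1a2, a glutamate transporter gene, also fell, and Aldoc, an aldolase gene, rose. With KO 2 and KO 3 summed the astrocyte markers gave 3 lower and 0 higher, and with the block and upper-quartile scaling also 3 and 0, so the Aldoc call was lost in both. KO and WT libraries overlapped for Gfap and Aldoc. The summed level of all 8 astrocyte markers ranged from 317 to 889 CPM in KO and from 352 to 1071 CPM in WT. Aldoc was the largest part of this sum, at a mean of 565.5 CPM in KO and 474.2 CPM in WT. The sum therefore says little about the less abundant markers, such as Aldh1l1. Of 8 tested neuronal markers Syt1, Elavl3 and Stmn2 fell, and 1 did with KO 2 and KO 3 summed. For Syt1 and Stmn2 the KO and WT libraries overlapped, and Stmn2 was low, at 0.366 CPM in KO and 1.0 CPM in WT. Sums over all 9 listed neuronal markers were 862.5 to 1086 CPM in KO and 807.5 to 1122 CPM in WT. Most of this came from Map2 (means of 625.8 CPM in KO and 558.3 CPM in WT) and Gap43 (245.9 and 267.1 CPM). Of 8 oligodendrocyte lineage markers Nkx2-2 and Sox10 fell and Pdgfra rose with the block. Without it edgeR's adjusted p was 0.0316 for Nkx2-2, 0.999 for Sox10 and 0.954 for Pdgfra, and KO and WT libraries overlapped for Sox10 and Pdgfra. The Nkx2-2 call without the block was lost when any 1 of KO 1, KO 2, KO 3, WT 2 or WT 3 was left out. Sums over the oligodendrocyte lineage markers were 3421 to 3673 CPM in KO and 3515 to 4269 CPM in WT, mostly from Olig1 and Olig2. Of 3 tested ependymal markers Foxj1, a factor of ciliated cells, fell, but its libraries of KO and WT overlapped and 0 passed with KO 2 and KO 3 summed, with numbers 2 and 3 alone, or with the block without number 1. The sums over ependymal markers were 17.3 to 38.1 CPM in KO and 22.5 to 52.5 CPM in WT, mostly from Foxj1. The part of these cell types in the lower Hopx and Prom1 levels was not tested.

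The single tested marker of intermediate progenitors, Btg2, did not pass, and Eomes and Neurog2 were under 1 CPM in every library, while Neurog1 was at 0. Summed levels over microglial markers were 0.731 to 1.19 CPM in KO and 0.421 to 0.804 CPM in WT, with Aif1 and Ptprc at 0 in all 6 libraries. Sums over endothelial markers were 1.34 to 1.72 CPM in KO and 1.21 to 2 CPM in WT, with Cdh5 at 0. Sums over mesenchymal markers were 0.997 to 1.49 CPM in KO and 1.52 to 3.10 CPM in WT, with Dcn at 0, and Col1a2 fell with the block but had an adjusted p of 0.376 without it in edgeR's test. Of the 8 proliferation genes, Aurkb, Top2a and Pcna rose with the block and 0 fell, against 3.33% of all genes higher. The count was 0 without the block, 0 with KO 2 and KO 3 summed, 1 with the block and upper-quartile scaling, and 2 when both libraries of any 1 number were left out.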

How the data were processed

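Per the labels' protocols, mRNA was fragmented and copied into cDNA from random hexamers. The values the authors deposited are raw counts, whole numbers for each gene symbol, in 1 column per library. Per the submitters' processing notes, FastQC, cutadapt, Trim Galore, Bowtie2 and RSEM were used with mm10; the sources used here give no versions, annotation, strand setting or rounding of RSEM estimates. Group and replicate number were read from the sample titles.

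Counts were tested in R 4.3.3 with edgeR 4.0.16: filterByExpr by group (13683 genes kept), TMM scaling, a robust quasi-likelihood fit to all 6 libraries and glmQLFTest, two-sided, with Benjamini-Hochberg adjustment over all tested genes. SE is the size of the log2 fold change over the root of F. DESeq2 1.42.0 was an alternative. Likeness used log2 CPM with a prior count of 2.

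KO and WT share replicate numbers. Across genes, deviations from group means correlated at 0.854, 0.604 and 0.58 for numbers 1, 2 and 3, all over the limit of 0.1, so the number was used as a block beside the unblocked fit. The pairing comes from these values, not from the labels, and numbers 2 and 3 are not told apart by them (0.633 for KO 3 with WT 2).

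Positions and exon lengths are from GENCODE vM21 (GRCm38, the assembly that mm10 names) and promoters from RefSeq GRCm38.p6. Members, lists and tests were chosen with earlier results of these data known. Named from each list were the called members, at most 4 by lowest blocked p, or the 2 most abundant where fewer than 2 were called, and for Hopx and Prom1 the 3 genes nearest in pattern.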

Additional observations from a re-analysis of the deposited data

How the results depend on the processing

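Of 13683 genes, 8 were called for KO against WT by edgeR without the block, with 795 at an unadjusted p under 0.05. DESeq2 called 262 without the block, and with the replicate number as a block 1340 were called by edgeR, 1251 with DESeq2 size factors, 1310 with upper-quartile scaling and 1268 by DESeq2. Numbers 2 and 3 alone gave 743 and KO 2 and KO 3 summed gave 688. Leaving out 1 library gave 0 to 21 without the block, where 499 to 1352 passed p under 0.05 before adjustment. Leaving out number 1, 2 or 3 with the block gave 1037, 1248 and 1456. Of the 10 markers, 0 were called without the block and 0 when any 1 library was left out. DESeq2 without a block, the replicate block, the block with upper-quartile scaling, numbers 2 and 3 alone, and KO 2 and KO 3 summed each called 2, Hopx and Prom1. The replicate block called 3 with DESeq2 size factors (with Pax6) and 3 in DESeq2 (with Sox2), and 2 to 4 when both libraries of 1 number were left out, the 4 being these 4 genes without number 3. In edgeR with TMM scaling of all 6 libraries, the block changed the calls of Hopx and Prom1 only. Against numbers 2 and 3, number 1 gave 5 to 8 called markers when 1 library was left out. Ranked by the longest transcript, 6 markers kept their place. Upper-quartile scaling moved log2 fold changes of KO over WT by -0.03. The cause of these differences was not tested. Prom1 rests on 102 to 368 counts per library and is the marker most limited by depth.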
